A study of Mus musculus with 12 samples.

Results

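The 39 protein-coding mouse Hox genes were followed in RNA of the spinal cord from 8 MFN2 and 4 WT mice, out of 49548 genes counted in each of 12 libraries. Members were found by Ensembl identifier from the names Hoxa, Hoxb, Hoxc or Hoxd followed by a paralog group number, without use of any measured value. MFN2 mice are hemizygous MitoCharc1 animals of mixed B6;D2 background carrying the transgene Tg(Eno2-MFN2*R94Q)L51Ugfm, in which the rat Eno2 promoter drives human R94Q MFN2 mainly in neurons. They keep their own mouse Mfn2, and in this they match the controls. WT mice are labelled C57BL/6 and are described as littermates in the study's methods. All mice were untreated and 30 days old. The labels call the tissue spinal cord, and the study's methods call it lumbar spinal cord. Each library came from 1 mouse and is named here by its genotype and its library number. WT libraries carry numbers 44 to 47, and MFN2 libraries carry numbers 41 to 43 and 72 to 76. What the numbers mark is not stated, and the second run of numbers holds MFN2 libraries only. Total counts ranged from 19359454 to 26738930 per library, and Hox genes took between 0.00991% and 0.0666% of them.

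Hox genes encode homeodomain transcription factors that give each level of the body axis its identity. They lie in 4 clusters, and within a cluster their order along the chromosome matches their order of expression from hindbrain to tail, so that low paralog group numbers are anterior and high numbers are caudal. In the spinal cord, the genes of the middle groups mark brachial and thoracic levels, Hoxa10, Hoxc10 and Hoxd10 act in lumbar motor neurons that supply the hind limb, and the groups beyond them mark lower lumbar, sacral and tail levels. Neurons and other cells of the cord keep a Hox code after development, so that Hox transcripts can be read as a record of the level a piece of cord came from.

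On GRCm38 the Hoxa cluster holds 11 genes at chr6:52155590-52260880, the Hoxb cluster 10 genes at chr11:96194316-96368256, the Hoxc cluster 9 genes at chr15:102921103-103036852 and the Hoxd cluster 9 genes at chr2:74668310-74765142. Members of a paralog group resemble each other most in the homeobox, the stretch of coding sequence for the DNA-binding homeodomain. The homeoboxes of the 3 group 10 genes are shown because these genes, which share a group, behaved differently across the libraries. Each has 180 bases, lies in exon 2 of 2 and was read from GENCODE M21 transcripts on GRCm38, for Hoxa10 at chr6:52232554-52232733 on the minus strand, for Hoxc10 at chr15:102970848-102971027 on the plus strand and for Hoxd10 at chr2:74694141-74694320 on the plus strand. Capitals mark the positions at which the 3 genes do not all carry the same base.
Hoxa10: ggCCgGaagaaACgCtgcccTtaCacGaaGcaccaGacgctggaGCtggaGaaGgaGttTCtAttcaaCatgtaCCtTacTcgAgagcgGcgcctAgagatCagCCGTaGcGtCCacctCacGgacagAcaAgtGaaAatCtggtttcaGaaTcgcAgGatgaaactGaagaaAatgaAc
Hoxc10: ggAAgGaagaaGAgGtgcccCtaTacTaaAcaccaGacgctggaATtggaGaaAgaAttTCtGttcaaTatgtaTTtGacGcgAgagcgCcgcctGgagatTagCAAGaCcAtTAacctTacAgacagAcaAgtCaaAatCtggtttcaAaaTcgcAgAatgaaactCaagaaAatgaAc
Hoxd10: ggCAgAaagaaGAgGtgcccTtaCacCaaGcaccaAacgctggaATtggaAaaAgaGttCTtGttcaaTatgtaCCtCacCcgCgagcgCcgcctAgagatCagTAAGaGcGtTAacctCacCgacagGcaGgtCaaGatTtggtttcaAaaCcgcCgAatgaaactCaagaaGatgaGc
The 3 sequences differed at 50 of 180 positions, and the longest run of bases common to all of them was 8. Pairwise identity was 80.6% for Hoxa10 and Hoxc10, 78.9% for Hoxa10 and Hoxd10 and 82.8% for Hoxc10 and Hoxd10. Over whole transcripts, 35 of the 39 members shared no stretch of 75 bases, the read length, with another member. The exceptions were Hoxc5 with Hoxc10 and Hoxd3 with Hoxd4, whose annotated transcripts overlap in part, so that the counts of these 4 genes are uncertain. Whether the counting used strand is not given in the sources used here, and antisense genes such as Hoxd3os1 and Hoxa11os cannot be told apart from the Hox genes they cross.

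Cord libraries of both genotypes carried Hox transcripts of nearly every group, and the middle groups dominated. Mean levels per length over the 12 libraries ranged from 0.0126 to 39.6 RPKM (counts scaled to exon length and library size), with a median of 2.48 RPKM. Hoxb8, known for its part in dorsal horn sensory circuits, was the most abundant at a mean level of 39.6 RPKM. It was followed among the leaders of other groups by Hoxa7 at 20.2 RPKM, Hoxb9 at 15.6 RPKM, Hoxb6 at 15.0 RPKM and Hoxc10 at 11.03 RPKM. Lower mean levels were found for Hoxa5, which acts in phrenic motor neurons, at 6.88 RPKM, for Hoxc4 at 4.49 RPKM, for Hoxc12 at 2.93 RPKM, for Hoxc11 at 2.03 RPKM and for Hoxc13 at 0.905 RPKM. These 10 genes are the members with the highest mean RPKM of paralog groups 4 to 13.

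**Figure D1:**
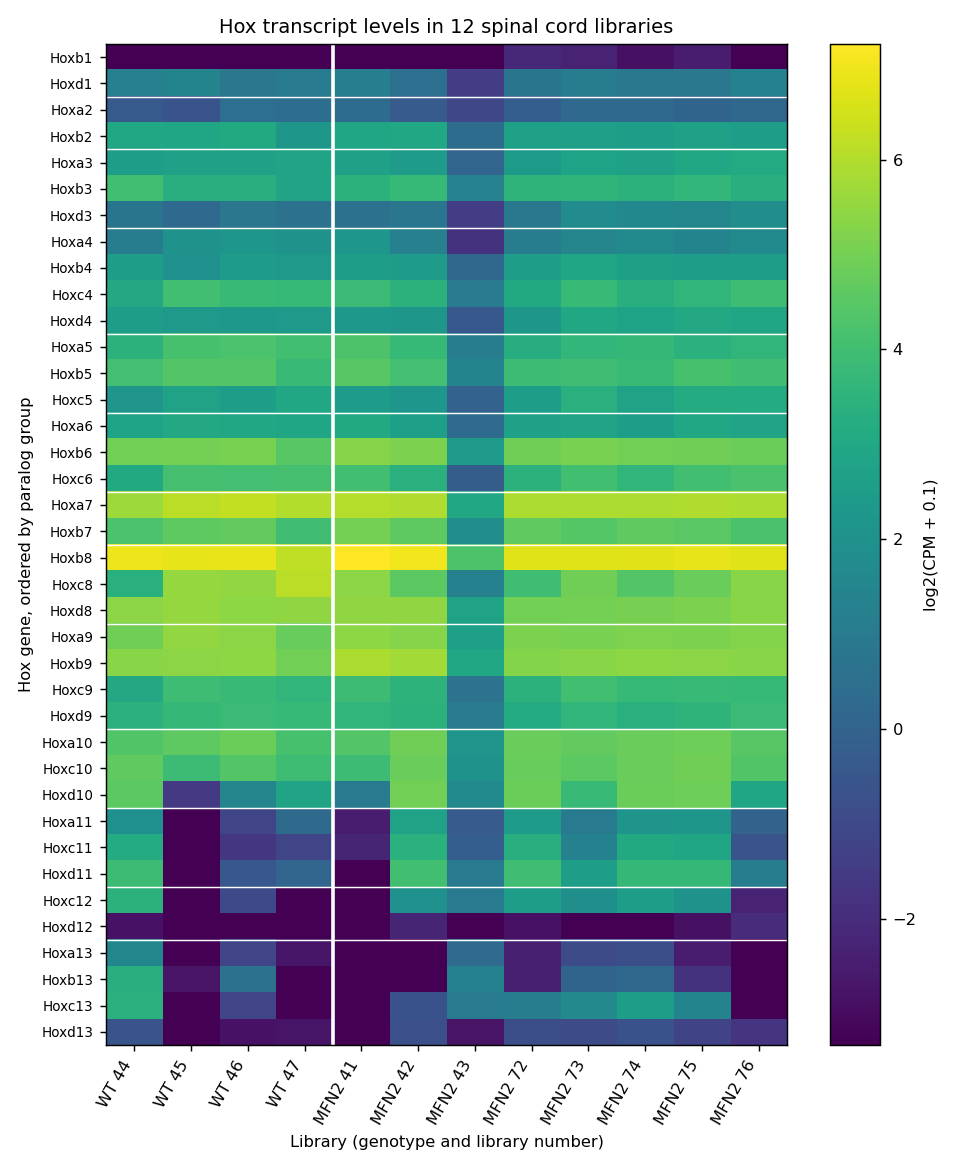
Heat map of the Hox genes reported here (rows, ordered by paralog group, thin white lines between groups) in 12 libraries (columns, WT left of the thick white line and MFN2 right of it), coloured by log2(CPM + 0.1). Most rows of groups 4 to 9 are even except in MFN2 library 43, Hoxc8 being uneven, while rows of groups 11 to 13 are dark in WT 45 and MFN2 41 and bright in WT 44.

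Members of groups 11 to 13 separated the libraries, and they did so within each genotype. Their share of all counts on groups 4 to 13 was 0.00805% in WT 45, 0.516% in WT 47, 0.619% in WT 46 and 10.9% in WT 44. In MFN2 libraries it was 0.0298% in library 41, 0.731% in 76, 3.30% in 73, 5.30% in 75, 6.13% in 42, 6.71% in 74, 7.19% in 72 and 11.4% in 43. The 2 genotypes overlapped over nearly the whole range, with 1 of 4 WT and 6 of 8 MFN2 libraries above 3%. That overlap rested on WT 44. The other WT libraries reached 0.619% at most, and of the MFN2 libraries only 41 lay within their range. Wilson 95% intervals, which cover counting error only, ran from 0.00142% to 0.0456% for WT 45, which had 1 count, and from 10.4% to 11.5% for WT 44, which had 1417 counts. In MFN2 mice they ran from 0.0127% to 0.0697% for library 41, with 5 counts, and from 6.75% to 7.65% for library 72, with 902 counts. Differences between such libraries of 1 genotype were therefore far beyond counting error.

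**Figure D2:**
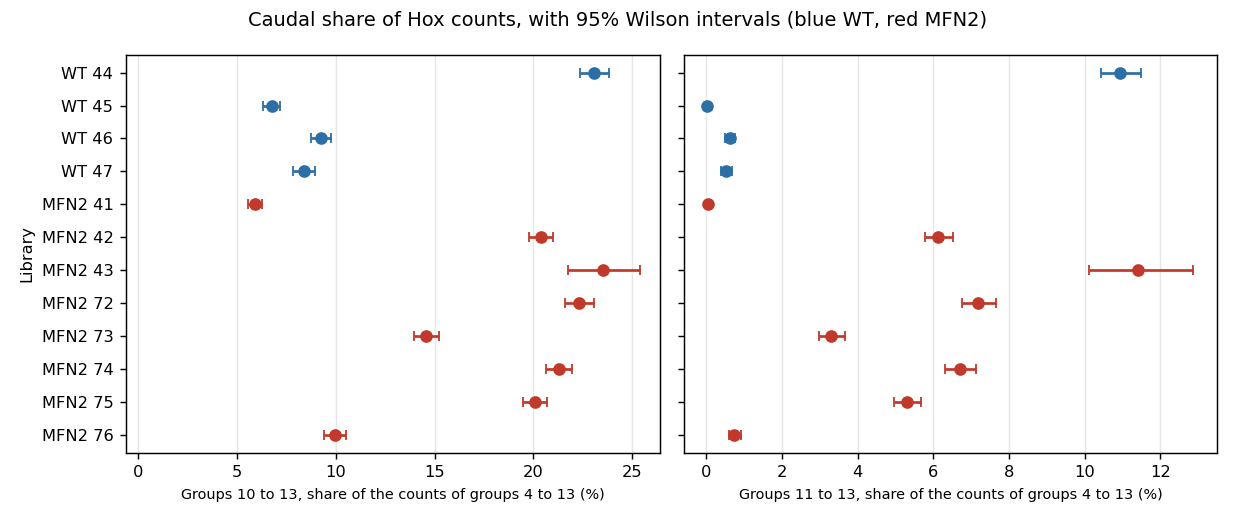
Share of the counts on paralog groups 4 to 13 that fell on groups 10 to 13 (left, %) and 11 to 13 (right, %), with 1 point per library and 95% Wilson intervals (blue WT, red MFN2). WT 44 lies at 10.9% on the right, while WT 45, 46 and 47 and MFN2 41 and 76 lie below 1%.

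Read per length, the profile of each library had its peak at group 8, and libraries differed in how far it reached beyond group 10. Group 8 held between 24.9% (MFN2 72) and 34.1% (WT 47) of the summed RPKM of groups 4 to 13. Group 10 held between 5.91% (MFN2 41) and 16.9% (MFN2 72). Profiles of WT 45, 46 and 47 and of MFN2 41 and 76 fell off after group 10, with at most 0.54% of the RPKM in each later group. WT 46 still had 0.39% in group 13 (49 counts), more than MFN2 42 at 0.16%. MFN2 42, 72, 74 and 75 carried between 3.51% and 4.82% in group 11 and no more than 2.50% in group 12. Group 13 reached 4.27% in WT 44 and 5.92% in MFN2 43, against at most 1.34% in any other library. The profile of MFN2 73 lay between, with 1.47% in group 11.

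**Figure D3:**
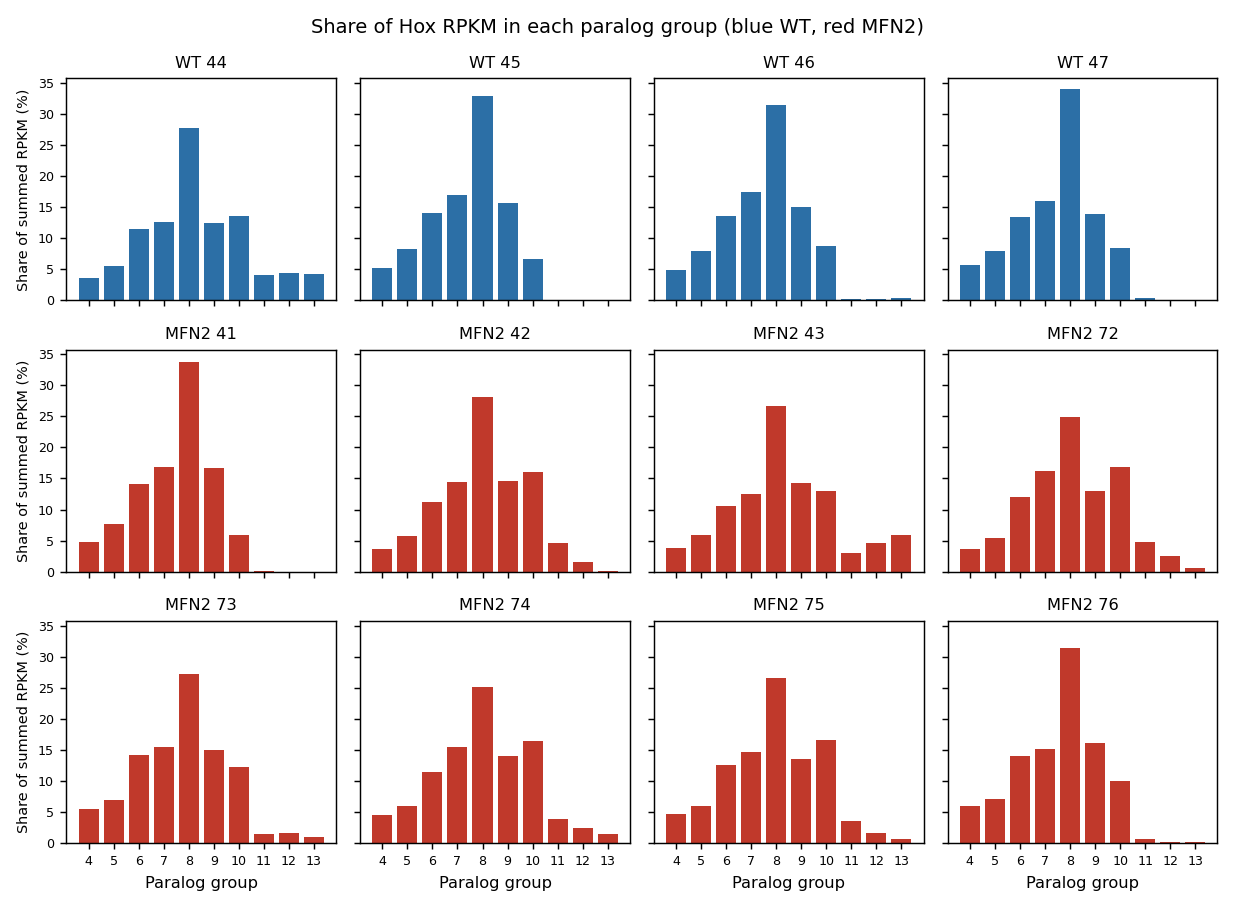
Share of the summed RPKM of Hox groups 4 to 13 (vertical axis, %) in each paralog group (horizontal axis), with 1 panel per library (blue WT, red MFN2). Every profile peaks at group 8, and those of WT 45 to 47, MFN2 41 and MFN2 76 hold at most 0.54% in each group beyond 10.

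The mean paralog group weighted by RPKM placed each library on 1 scale. It was 7.38 in WT 45, 7.43 in WT 47, 7.47 in WT 46 and 8.24 in WT 44. For MFN2 libraries the lowest value was 7.41 (library 41), the median 7.95 and the highest 8.31 (library 43). Means were 7.85 ± 0.299 (SD, n = 8) in MFN2 and 7.63 ± 0.407 (SD, n = 4) in WT mice, and the difference of 0.225 was smaller than the pooled SD of 0.335. The log2 ratio of groups 10 and 11 to groups 8 and 9, lumbar against thoracic groups, was -1.19 in WT 44, -2.38 in WT 46, -2.42 in WT 47 and -2.87 in WT 45. Its lowest value in MFN2 libraries was -3.09 (library 41), its median -1.19 and its highest -0.80 (library 72). The difference between genotypes was 0.71 on the log2 scale and the pooled SD was 0.76. By both measures the 2 genotypes overlapped, and with all libraries the difference was smaller than the pooled SD. That order turned on single libraries. Without WT 44 the difference in the weighted mean was 0.427 against a pooled SD of 0.264, and the difference in the log2 ratio was 1.06 against 0.70. The log2 ratio also differed by more than its pooled SD without MFN2 41 (0.94 against 0.57) and without MFN2 76 (0.81 against 0.77). No p-value is given, since both are scores over the chosen members.

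Within group 10, Hoxd10 carried most of the difference between libraries, while Hoxa10 and Hoxc10 were present throughout. Hoxd10 was at 23.3 CPM (counts scaled to library size by TMM) in WT 44, 6.94 in WT 47, 2.66 in WT 46 and 0.235 in WT 45. In MFN2 libraries its lowest CPM was 1.87 (library 41), its median 21.4 and its highest 31.6 (library 42). So WT 45, with 5 counts, stood lowest of all, and both genotypes held high and low libraries. Leaving aside library 43, in which nearly all Hox genes were low, Hoxd10 spanned 134-fold over the other 11 libraries, Hoxc10 2.06-fold and Hoxa10 1.70-fold. Hoxc10 was at 25.1 CPM in WT 44, 21.0 in WT 46, 15.2 in WT 47 and 15.0 in WT 45, and in MFN2 libraries its lowest CPM was 4.08, its median 25.3 and its highest 30.5. Over their whole transcripts, none of these 3 genes shared a stretch of 75 bases with another of them. Hoxd10 and Hoxa10 were singled out after their values were seen, as were Hoxd11, Hoxa11, Hoxc8, Hoxd3 and Hoxd8.

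All 9 members of groups 11 to 13 were at 0 in at least 1 library, which was true of 0 of the 19 members of groups 4 to 9. Hoxd11, next to Hoxd10 in the cluster, was at 0 counts in WT 45 and in MFN2 41, which allows up to 0.141 and 0.114 CPM (3 counts). It was at 0.620 CPM in WT 46, 0.991 in WT 47 and 14.8 in WT 44, and its MFN2 median was 9.26 CPM with a highest value of 16.4 (library 42). The highest library thus lay at least 143-fold above the lowest. Hoxc11 was at 8.86 CPM in WT 44, 0.365 in WT 47, 0.222 in WT 46 and 0 in WT 45, and in MFN2 libraries its lowest CPM was 0.114, its median 4.86 and its highest 10.6. Hoxa11 was at 0 in WT 45 only and spanned at least 47.03-fold over the 11 libraries. All 3 group 11 genes thus had their highest level in MFN2 42 and fell to 0 in WT 45.

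The most caudal groups had another leading library. Hoxc12 was at 10.7 CPM in WT 44, 0.399 in WT 46 and 0 in WT 45, WT 47 and MFN2 41, and its highest CPM in MFN2 mice was 5.84 (library 72). Hoxc13 was at 10.4 CPM in WT 44, 0.354 in WT 46 and 0 in WT 45, WT 47, MFN2 41 and MFN2 76, with a highest MFN2 value of 5.67 (library 74). Hoxb13, which limits growth of the tail end of the axis, was at 9.87 CPM in WT 44, 1.42 in WT 46, 0.0471 in WT 45 and 0 in WT 47. In MFN2 libraries it was highest in library 43 at 2.35 CPM and at 0 in libraries 41, 42 and 76. Hoxa13 and Hoxb13 were thus at 0 in MFN2 42, the library in which each group 11 gene had its highest CPM. By share of RPKM, group 11 was highest in MFN2 72 (4.82%). All of Hoxc12, Hoxc13, Hoxb13 and Hoxa13 had their highest CPM in WT 44. Hoxd13 stayed at or under 13 counts, and Hoxd12 at or under 3 counts, in every library. Outside these groups, Hoxb1, which is known from the hindbrain, was at 0 in 8 libraries and reached 3 counts at most.

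Groups 4 to 9 were even across libraries by comparison. Over the 11 libraries other than 43, their 19 members spanned between 1.46-fold and 6.81-fold with a median of 1.96-fold, and 1 of them spanned more than 4-fold, against 8 of 9 members of groups 11 to 13. That gene was Hoxc8, a gene of lower brachial and thoracic levels. It was at 69.2 CPM in WT 47, 47.4 in WT 45, 45.2 in WT 46 and 10.2 in WT 44, and in MFN2 libraries other than 43 it lay between 15.9 (library 72) and 41.7 CPM (library 41). Library 43 aside, Hoxc8 was thus lowest in WT 44, the library richest in groups 12 and 13, and among the other MFN2 libraries it was highest in library 41, the poorest in groups 11 to 13. The other genes of its group did not share that range. Hoxb8 was at 124 CPM in WT 44, 118 in WT 46, 112 in WT 45 and 74.4 in WT 47, a span of 2.00-fold over the 11 libraries, and Hoxd8 spanned 1.49-fold.

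**Figure D4:**
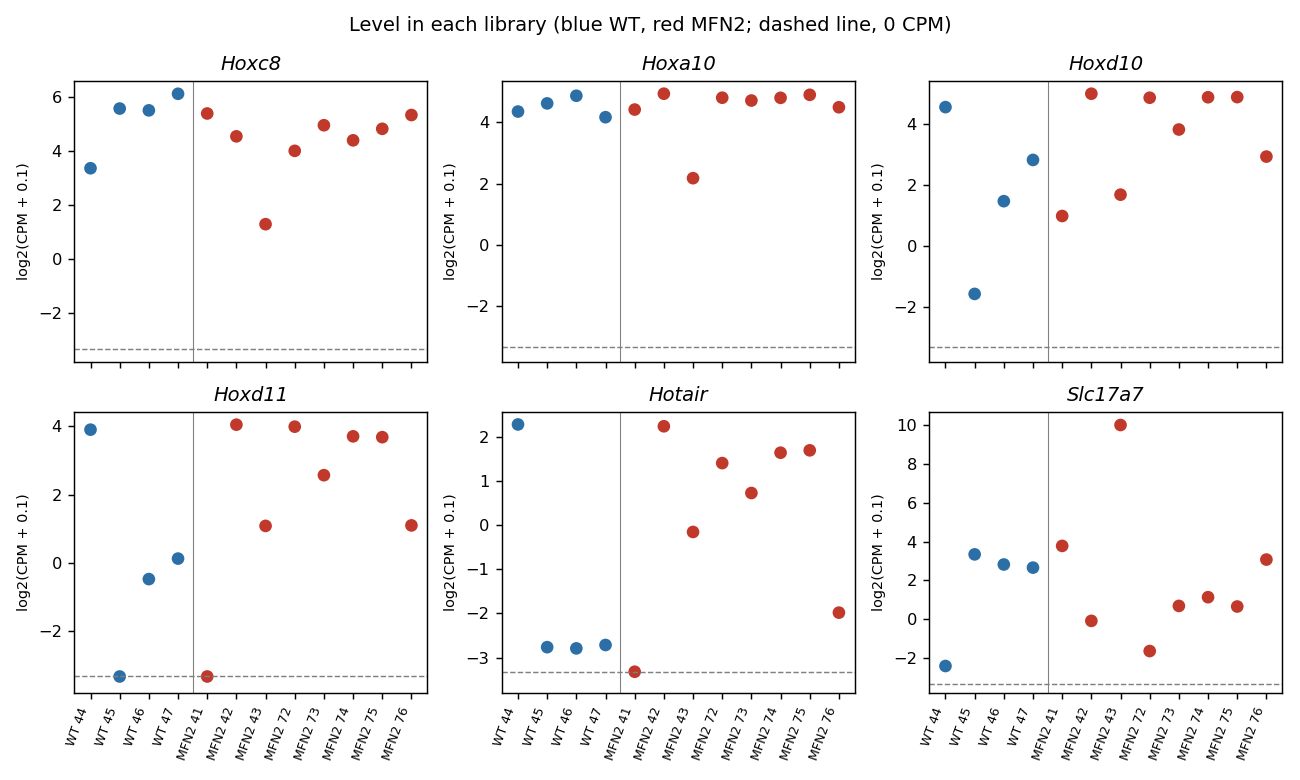
Level of Hoxc8, Hoxa10, Hoxd10, Hoxd11, Hotair and Slc17a7 in each library as log2(CPM + 0.1), with 1 point per library (blue WT left of the grey line, red MFN2 right of it) and a dashed line at 0 CPM. Hoxa10 is level apart from MFN2 43, while Hoxd10, Hoxd11 and Hotair are low in WT 45, 46 and 47 and in MFN2 41 and 76.

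MFN2 library 43 stood apart from the other 11 in the Hox genes as a whole. Hox genes took 0.00991% of its counts (2160 counts), against 0.0522% to 0.0666% elsewhere. All 19 members of groups 4 to 9 were lowest there, at 4.66% to 19.1% of the median CPM of the other 11 libraries, with a median of 15.4%. Hoxb8 was at 19.3 CPM in library 43 and between 74.4 and 149 CPM in the others. Hoxa7 was at 7.65 CPM in library 43 against 51.3 to 75.1 CPM elsewhere, so that library 43 lay outside the range of the others for both genes. The 3 group 11 genes were at 33.8% to 37.9% of the median of the others, and its Hoxb13 (2.35 CPM) lay below WT 44 (9.87 CPM) and above all other libraries, which reached 1.42 CPM at most. In bulk RNA, fewer cells that express a gene and less RNA of it per cell cannot be told apart. The shares of Hox groups within library 43 do not depend on its scaling, and its weighted mean paralog group of 8.31 was the highest of all.

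**Figure D5:**
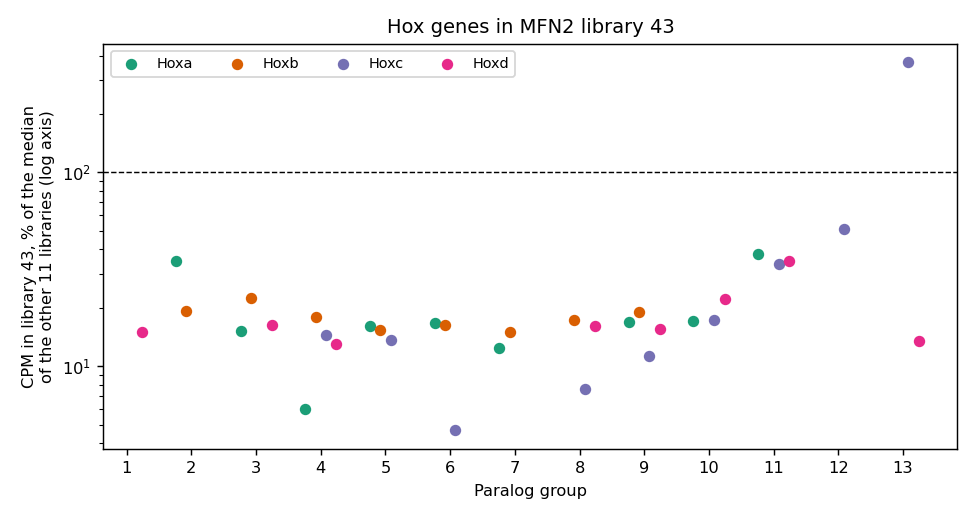
CPM in MFN2 library 43 as a percentage of the median CPM of the other 11 libraries (vertical log axis) by paralog group (horizontal axis), for the 34 Hox genes above 0 in library 43 whose median in the others exceeds the level of 3 counts, coloured by cluster, with a dashed line at 100%. Groups 4 to 9 lie between 4.66% and 19.1%, and Hoxc13 lies at 369%.

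Genes of other tissues moved with library 43. The list of 12 forebrain genes, all counted and none at 0 there, summed to 4812 CPM in library 43 and to 112 to 209 CPM in the other libraries. Its most abundant gene was Camk2a, at 1920 CPM in library 43 and 69.5 to 152 CPM elsewhere. Tbr1, a transcription factor of cortical neurons, was at 89.7 CPM in library 43 and at most 0.80 CPM elsewhere, and Ddn was at 819 CPM against at most 7.36 CPM. In the same library Slc6a5, the glycine transporter of spinal inhibitory neurons, was at 76.3 CPM against 335 to 447 CPM, and Chat, the acetylcholine-synthesising enzyme of motor neurons, was at 5.21 CPM against 16.4 to 35.3 CPM. The part of these cells in the Hox values of library 43 was not tested.

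Hotair and Slc17a7, which are outside the 39 genes and were picked after their values were seen, followed the split in groups 11 to 13. The summed levels of the lists that hold them did not. Noncoding genes of the Hox clusters summed to 19.5 CPM in MFN2 41 and 19.8 CPM in WT 44. Forebrain genes summed to 112 CPM in WT 47 and 209 CPM in MFN2 41. Hotair, a noncoding RNA transcribed from between Hoxc11 and Hoxc12, was at 4.76 CPM in WT 44 and at 0.0471, 0.0443 and 0.0522 CPM in WT 45, 46 and 47. In MFN2 libraries it was at 0 in library 41, 0.153 CPM in 76, 0.798 in 43, 1.56 in 73, 2.55 in 72, 3.02 in 74, 3.14 in 75 and 4.62 in 42. The 5 libraries lowest in Hotair were thus WT 45, 46 and 47 and MFN2 41 and 76, also the 5 lowest in Hoxd10 outside library 43. Slc17a7, the vesicular glutamate transporter that in the cord is known from neurons of Clarke's column at thoracic and upper lumbar levels, had the opposite order. It was at 10.03, 6.96 and 6.21 CPM in WT 45, 46 and 47, at 13.6 and 8.31 CPM in MFN2 41 and 76, at 0.0873 CPM in WT 44 and between 0.220 and 2.09 CPM in MFN2 42, 72, 73, 74 and 75. Slc17a7 is a forebrain gene as well and reached 1032 CPM in library 43.

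Glial genes were also unevenly spread. The 4 oligodendrocyte genes, all counted and none at 0 in any library, summed to 24796, 25479, 27570 and 29076 CPM in WT 45, WT 47, MFN2 41 and MFN2 76, and to 6563 CPM in MFN2 43. The other 7 libraries lay between 17384 (MFN2 42) and 23269 CPM (MFN2 73), among them WT 46 at 20476 CPM, a library low in groups 11 to 13. Gfap of astrocytes was at 3002 CPM in MFN2 41 and 2762 CPM in WT 45, against 756 CPM in MFN2 72. The 4 astrocyte genes together, led by Slc1a2, summed to 4484 to 7842 CPM, and the 6 neuronal genes, led by Snap25, varied less, from 2479 to 3011 CPM. Skeletal muscle genes (6, led by Pvalb, which neurons express as well) summed to 266 CPM in WT 47 and 249 CPM in MFN2 73, against at most 109 CPM elsewhere. Fibroblast and meningeal genes (5, led by Col1a1) were highest in WT 44 at 464 CPM and lowest in WT 45 at 106 CPM. The remaining lists were dorsal root ganglion genes (8, led by Pou4f1, 6.31 to 12.2 CPM), genes of midbrain, hindbrain and cerebellum (8, led by Zic1, 27.7 to 64.2 CPM) and Schwann cell genes (5, led by Mal, which oligodendrocytes express as well, 687 to 1856 CPM, with Pmp2 at 0 in every library but 43). The part of these cells in the Hox differences between libraries was not tested.

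Of the 35 Hox genes that passed the filter on low counts, 0 differed between genotypes (8 MFN2 and 4 WT mice) at an FDR of 0.05 or less by the quasi-likelihood F test of edgeR, adjusted over all genes by Benjamini-Hochberg, as did 0% of all 15942 genes tested (0 genes). At an unadjusted p under 0.05 there were 0 Hox genes, against 15.0% of all genes tested, and both DESeq2, which called 200 of all genes tested, and limma-voom, which called 0, called 0 Hox genes. The count of Hox genes at an unadjusted p under 0.05 depended on single libraries, with 6 of 35 without WT 44 (17.1%, beside 15.7% of all genes tested) and 3 without MFN2 43 (8.57%, beside 21.2%), and 0 of them passed the FDR. Ranges of MFN2 and WT libraries overlapped for each of the 39 members, while 2.04% of the genes tested had ranges without overlap. Against WT, 4 members had ranges without overlap in MFN2 libraries 72 to 76 (beside 19.7% of the genes tested), 1 in 41 to 43 (beside 8.81%) and 4 in 41 and 42 (beside 14.7%). The 35 log2 fold changes (MFN2 against WT) ranged from -2.32 to 1.21 with a median of -0.07, beside a median of 0.00 over all genes tested. Of these, 13 were above 0 and 22 below. A filter that keeps a gene by its higher libraries passed 26 of 27 members of groups 1 to 9, the 3 members of group 10 and 6 of 9 members of groups 11 to 13. Hoxb1, Hoxd12, Hoxa13 and Hoxd13 did not pass.

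The genotype comparison was less certain for groups 11 to 13 than for the groups before them. Standard errors of the log2 fold change were between 0.33 and 0.55 for groups 4 to 9, and between 1.00 and 1.26 for the 6 members tested of groups 11 to 13. Hoxb13 had the lowest p of all members with a log2 fold change of -2.32 (SE 1.24, FDR 0.382 by edgeR), a value set by WT 44, without which it was 0.17. Hoxc8 had -0.76 (SE 0.55) and Hoxd10 1.13 (SE 0.93), and both stood at an FDR above 0.5. Without WT 44, Hoxd10 was at 2.48 and the MFN2 and WT ranges of Hoxc8 no longer met, at 2.35 to 41.7 CPM against 45.2 to 69.2 CPM, as was true of 7.21% of all genes tested.

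For the leaders of groups 4 to 9, no difference between genotypes passed the test with all libraries. Hoxb8 had a log2 fold change of -0.05 (SE 0.36), Hoxb6 of -0.03 (SE 0.36) and Hoxb9 of 0.06 (SE 0.35), and all of these crossed 0 when library 43 or another single library was left out. Hoxc4 had -0.26 (SE 0.38), Hoxa7 -0.24 (SE 0.38) and Hoxa5 -0.46 (SE 0.37), the last of which passed the FDR with MFN2 72 to 76 alone. Further caudally, Hoxc10 had 0.21 (SE 0.38), Hoxc11 1.07 (SE 1.22), Hoxc12 0.17 (SE 1.23) and Hoxc13 -0.45 (SE 1.26). Without WT 44, Hoxc11 was at 4.67, Hoxc12 at 4.44 and Hoxc13 at 3.94. FDR values of these 10 genes with all libraries lay between 0.540 and 0.974 in edgeR. A 2-fold change is 1 on this scale, which is no larger than the standard error of any member tested of groups 11 to 13. Such a change was not detectable in these genes. For groups 4 to 9, with standard errors of 0.33 to 0.55, the test was not shown to detect it either. In the same edgeR fit 0 of 15942 genes passed, and Nkx6-1, at -0.71 (SE 0.24), stood at an FDR of 0.278.

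Comparison of the 2 runs of library numbers within MFN2 mice, which holds the genotype constant, gave 0 Hox genes past an FDR of 0.05 in edgeR, against 8.40% of all genes tested. At an unadjusted p under 0.05 there were 3, Hoxd3, Hoxc5 and Hoxd4, against 28.7% of all genes tested, and DESeq2 called 2, Hoxd3 and Hoxc5, against 15.9%. Library 43 weighed on this result. Without it, 4 Hox genes passed in edgeR, against 14.0% of all genes tested, and without library 42 there were 2, against 13.7%. Among the 4, Hoxd8 (-0.36, SE 0.09, FDR 0.0167) and Hoxb9 (-0.49, SE 0.10, FDR 0.00937) were lower in libraries 72 to 76 than in 41 and 42, and Hoxd3 (0.90, SE 0.28, FDR 0.0490) was higher.

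With MFN2 libraries 72 to 76 alone set against WT, 4 Hox genes passed in edgeR, beside 23.8% of all genes tested. Among them, Hoxd8 was lower at -0.36 (SE 0.07, FDR 0.00470) and Hoxa5 at -0.46 (SE 0.15, FDR 0.0429), and Hoxd3 was higher at 0.93 (SE 0.23, FDR 0.0118). This comparison and the one between runs share libraries 72 to 76. Hoxd3 was at 1.62, 1.13, 1.73 and 1.46 CPM in WT 44 to 47, at 1.41 and 1.64 CPM in MFN2 41 and 42, and at 1.76, 3.26, 2.90, 2.79 and 3.57 CPM in MFN2 72 to 76. Hoxd8 was at 41.1, 46.96, 43.1 and 44.4 CPM in WT 44 to 47, at 43.9 and 44.03 CPM in MFN2 41 and 42, and at 31.5, 32.1, 32.9, 35.1 and 39.9 CPM in MFN2 72 to 76. For both genes MFN2 41 and 42 lay inside the WT range, and all of MFN2 72 to 76 lay outside it. With MFN2 41 to 43 against WT, 0 Hox genes passed in edgeR, against 0.00658% of all genes tested. Genotype and run of library numbers cannot be told apart in libraries 72 to 76.

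Genes that act with the Hox genes were read from the same fits, and in the comparison of all MFN2 with all WT mice 0 genes of 5 lists reached an FDR of 0.05 in edgeR. The lists were Hox cofactors (9 of 9 counted genes tested, median log2 fold change 0.12), regulators upstream of the Hox genes and neighbouring homeobox genes (7 of 12 tested, -0.03, led by Gdf11), Polycomb and trithorax genes (22 of 22 tested, 0.07, led by Cbx6), motor neuron and motor column genes (20 of 20 tested, -0.25, led by Tns1) and noncoding genes of the Hox clusters (5 of 16 tested, -0.01, led by Hoxd3os1). Library 43 stood apart in the summed level of 4 of these lists, with 480 CPM of cofactor genes against 236 to 259 CPM elsewhere, 342 CPM of motor neuron genes against 545 to 914 CPM, 1310 CPM of Polycomb and trithorax genes against 1070 to 1218 CPM, and 2.72 CPM of noncoding genes against 15.5 to 20.97 CPM. At an unadjusted p under 0.05 the lists held 1, 1, 5, 1 and 0 genes, which is 8 of 63 tested (12.7%), beside 15.0% of all genes tested. Between the runs, Cbx7 of the Polycomb complex (-0.55, SE 0.10, FDR 0.0113) and Etv1, a factor of motor and sensory neuron subsets (-0.74, SE 0.19, FDR 0.0399), fell in edgeR and 0 genes of the lists rose, so that 3.17% of the genes of these lists passed, beside 8.40% of all genes tested. Against WT, libraries 72 to 76 had 11 of 63 genes of these lists past the FDR (17.5%), a smaller share than the 23.8% of all genes tested. Gdf11, the signal that sets the onset of caudal Hox expression, had the lowest FDR of them and was lower at -0.32 (SE 0.06, FDR 0.00338 by edgeR). Kmt2b came next and was higher at 0.31 (SE 0.06, FDR 0.00494). The largest changes in size were lower levels of Hoxaas2 (-0.80), Nkx6-1 (-0.71), Etv1 (-0.53) and Cbx7 (-0.44). Meis3, Kdm6b, Suz12, Jarid2 and Cbx6 were higher.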

How the data were processed

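RNA was extracted from spinal cord with an RNeasy kit, and libraries were made with a SMARTer kit and sequenced as paired reads of 75 bases. The authors aligned the reads with STAR to GRCm38 and deposited raw counts, whole numbers of reads for each Ensembl gene. The submitters' processing notes also name bcl2fastq and edgeR, and GRCm38.p6. Neither the tool that counted reads nor its strand setting is given in the sources used here. The labels name an mRNA kit, and the methods a stranded total RNA kit.

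Hox members and lists were chosen with earlier results of these data known. Symbols were matched by Ensembl identifier to GENCODE M21 (49289 of 49548 genes). Of the noncoding list, 16 of 17 genes were matched. Genes above 1 CPM in at least 3 libraries were kept, TMM gave the scaling, and edgeR 4.0.16 (R 4.3.3) the test (quasi-likelihood F test, legacy form, robust), with Benjamini-Hochberg adjustment over all 15942 genes. The comparison of runs used 1 factor with 3 levels (WT, MFN2 41 to 43 and MFN2 72 to 76). RPKM used the union of a gene's exons and TMM-scaled library sizes. Levels per group, the weighted mean and the log2 ratio are descriptions. Genes named with values are, for each of groups 4 to 13, the member with the highest mean RPKM, the 2 members with the lowest p between genotypes, members past the FDR and, by name, members at 0 in any library. Other Hox genes are said to have been singled out after their values were seen. Hotair, Slc17a7, Tbr1, Ddn, Slc6a5, Chat and Gfap fall under none of these rules. They are to be read as picked after their values were seen.

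On simulated counts, 180 of 196 genes changed by 1 on the log2 scale (91.8%) were recovered among 15847 tested, with 7 false calls, at a dispersion of 0.05. That dispersion is a setting of the simulation, and whether it matches the spread of these libraries was not tested. In the genotype fit, standard errors were 0.33 to 0.55 for groups 4 to 9. They were 1.00 to 1.26 for the members tested of groups 11 to 13, and 0 of 15942 genes passed the FDR. The 91.8% therefore cannot be read as the power of the genotype comparison. Alternatives were other filters and scalings, DESeq2 1.42.0, limma 3.58.1, each run against WT and each library left out. MFN2 41 and 42 against WT were added after the data were seen. Total counts from 19359454 to 26738930 put 3 counts, the limit that a count of 0 allows, at 0.114 to 0.157 CPM. Some genes of the Hox, cofactor and marker lists have no values of their own in the text but enter the counts and sums.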

Additional observations from a re-analysis of the deposited data

Results flagged for a closer look

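Values of 30 groups of libraries were examined for a single library far from the others of its genotype, by the gap to its nearest neighbour over the group's range (Dixon's ratio at the 95% level). In 11 of them the ratio exceeded the critical value, where chance alone gives about 1.5 if values are normally distributed. In MFN2 mice all 6 concerned library 43. It was the lowest in Hoxb6 (ratio 0.680, 5.02 CPM), Hoxa7 (0.894, 7.65 CPM), Hoxb8 (0.650, 19.3 CPM), Hoxb9 (0.568, 7.93 CPM) and the Hox share of counts (0.839, 0.00991%), and the highest in Hoxb13 (0.554, 2.35 CPM). In WT mice the other 5 concerned library 44, which was the highest in Hoxc11 (0.959, 8.86 CPM), Hoxc12 (0.963, 10.7 CPM), Hoxc13 (0.966, 10.4 CPM), Hoxb13 (0.856, 9.87 CPM) and the weighted mean paralog group (0.891, value 8.24). These measures share reads and members, so they are not independent.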

How the results depend on the processing

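Under every other filter and scaling, DESeq2, limma and each library left out, the count of Hox genes past the FDR between genotypes stayed at 0. With MFN2 libraries 72 to 76 alone against WT it was 4 (beside 23.8% of all genes tested), and 11 genes of the related lists passed. Between the runs the count was 2 with DESeq2 (beside 15.9%) and 0 to 4 with 1 library left out (2 without 42, beside 13.7% of all genes tested, and 4 without 43, beside 14.0%). Members without overlap between genotypes numbered 1 with MFN2 41 to 43 (Hoxd4, beside 8.81% of all genes tested), 4 with 72 to 76 (among them Hoxb4, Hoxd3 and Hoxd8, beside 19.7%), 4 with 41 and 42 (Hoxb6, Hoxb8, Hoxb9 and Hoxd4, beside 14.7%) and 0 to 1 with 1 library left out (Hoxc8 without WT 44, beside 7.21%). With 1 library left out, the weighted mean paralog group differed by 0.141 to 0.427 and the log2 ratio by 0.49 to 1.06 between genotypes, both highest without WT 44, where both exceeded the pooled SD.

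Some log2 fold changes between genotypes changed sign, and the cause was not tested. By library size only, Hoxb6 was at 0.026 and Hoxb8 at 0.0018. Scaled to summed Hox counts, which moved the median of all genes by 0.63, Hoxb6 was at 0.075, Hoxb8 at 0.064 and Hoxc13 at 0.17. By limma-voom, Hoxb9 was at -0.10 and Hoxc13 at 1.52. With MFN2 41 to 43, Hoxc10 was at -0.27, Hoxc12 at -0.50 and Hoxd3 at -0.39, and with 72 to 76, Hoxb6 was at 0.051. With 1 library left out the ranges were -0.15 to 0.13 for Hoxb6, -0.19 to 0.11 for Hoxb8, -0.052 to 0.22 for Hoxb9, -0.24 to 4.44 for Hoxc12, -0.89 to 3.94 for Hoxc13 and -3.14 to 0.17 for Hoxb13, the last 3 at their highest without WT 44.

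No paired analysis was possible because the genotypes have no library number in common. Low counts limit the reading of genes of groups 12 and 13, many of which rest on fewer than 10 counts in several libraries. The labels give the genotypes different strain backgrounds, and in libraries 72 to 76 genotype and run of numbers cannot be told apart.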
